A study of Homo sapiens with 3 samples.

Results

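The genes that encode histone demethylases, lysine methyltransferases and deacetylases were examined in HCT-116 cells with and without *APC* silencing. The set was taken from the deposited table by gene symbol and comprised *KDM* genes of the lysine demethylase families, *SETD* genes, *HDAC* genes and *MLL* genes, together with *EZH1*, *EZH2*, *EHMT1*, *EHMT2*, *SUV39H1*, *SUV39H2*, *NSD1* and *DOT1L*. It held 48 of the 23131 genes listed, of which 13 were demethylases, 24 were methyltransferases or other SET domain proteins and 11 were zinc-dependent deacetylases. *KDM5C*, *KDM5D* and *KDM6A* were left out by the rule that defined the set, which used no expression value.

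HCT-116 is a colon carcinoma cell line with wild-type *APC* and a stabilising deletion in β-catenin (CTNNB1ΔSer45), and both libraries shared this genotype. Cells were transfected on consecutive days, 2 times in all, with a pool of anti-*APC* siRNA and harvested 48 hours after the second transfection. The control library carries the title untransfected, whereas its treatment label states that it received the transfection reagent without siRNA (mock). A library from cells given scrambled siRNA was not analysed here, so *APC* silencing and siRNA delivery cannot be told apart in these ratios. Each group had 1 library, and no difference given here therefore has a replicate check or a p-value.

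Lysine methylation and acetylation of histone tails mark chromatin as open or closed to transcription. Methylation of histone H3 at lysine 4 (H3K4) accompanies active promoters, whereas methylation of H3K9 and H3K27 accompanies silent genes, and each mark is laid down by SET domain methyltransferases and taken off by demethylases with an amine oxidase or a Jumonji C (JmjC) domain. H3K27 trimethylation is written by Polycomb repressive complex 2, whose catalytic subunit is EZH2 or EZH1, and is removed by demethylases such as KDM6B (JMJD3). Deacetylases remove acetyl groups within co-repressor complexes and have been widely studied as drug targets in colon cancer.

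The level of each gene is given as FPKM, a fragment count divided by transcript length and by the size of the library, so that levels of different genes are compared per unit of length. *APC* itself was at 3.43 FPKM in the anti-*APC* siRNA library and 9.15 in the untransfected library, which is 0.375 times the untransfected level. *AXIN2*, a WNT target and feedback inhibitor, was at 28.7 and 4.11 FPKM, and *CTNNB1* was at 178 and 177. Of 9 markers of colon epithelium, 6 had a mean of at least 1 FPKM, and all 6 were lower in the anti-*APC* siRNA library, from *CDH1* at 12.1 against 19.0 FPKM to *CDX2* at 6.77 against 7.33. Of all genes with such a mean and a value above 0 in both libraries, 58.6% were lower. The summed level of the 6 markers was 1294 against 1649 FPKM, *KRT20* was at 0.718 against 0.475, and *CDX1* and *VIL1* were at 0 in the untransfected library. Of 9 markers of stroma, endothelium and blood only *COL1A1* passed that mean, at 3.08 against 2.85 FPKM. The part of these marker levels in the results that follow was not tested, and fewer cells with a transcript and less of it per cell cannot be told apart in bulk RNA.

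Across all expressed genes, which are the 12063 genes with a mean of at least 1 FPKM and a value above 0 in both libraries, the anti-*APC* siRNA library was lower more often than higher. Specifically, 2.56% were at least 1.5-fold higher, 6.61% were at least 1.5-fold lower, and the median log2 ratio of anti-*APC* siRNA over untransfected was -0.05. Among the enzymes, *SUV39H2* was listed at 0 in both libraries because its estimate failed, and *HDAC9*, a class IIa deacetylase, was below the minimum at 0.567 against 0.727 FPKM. Of the other 46 enzymes, only *KDM6B* and *SETD6* were at least 1.5-fold higher, and none was at least 1.5-fold lower. These 2 genes were 4.35% of the enzymes, whereas 9.17% of all expressed genes were past 1.5-fold in either direction. The direction was higher for 18 and lower for 28 of the 46, or 39.1% higher beside 41.4% of all expressed genes, and 23 of the 46 were higher relative to the median of all expressed genes. The median log2 ratio of the 46 enzymes was -0.05, with an interquartile range of -0.17 to 0.05 beside -0.24 to 0.11 for all expressed genes. The higher of the 2 levels was less than 25% above the lower for 41 enzymes (89.1%) and for 74.4% of all expressed genes. The summed level of the 46 enzymes was 1004 FPKM in the anti-*APC* siRNA library and 1015 in the untransfected library.

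**Figure D1:**
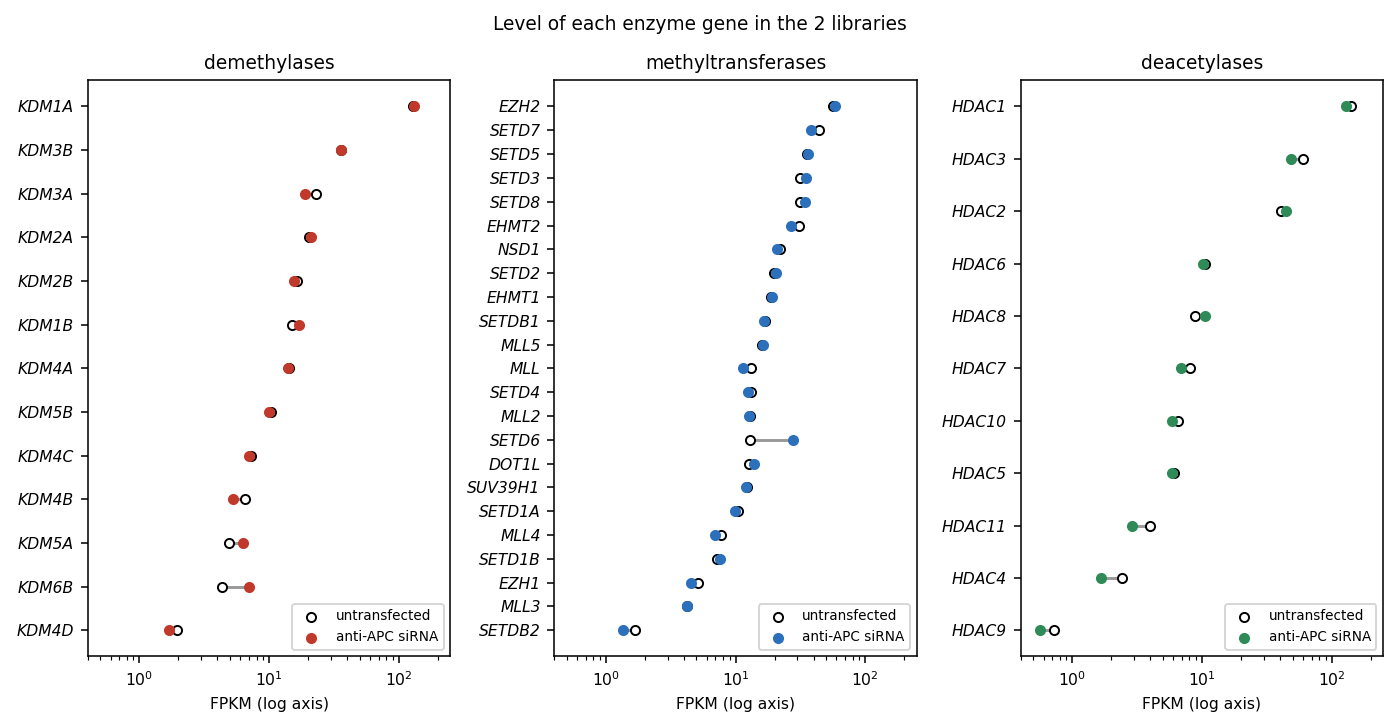
FPKM of each enzyme gene on a log axis in the anti-*APC* siRNA library (filled points) and the untransfected library (open points), with 1 library each and genes ordered by the untransfected level in each class. *SETD6* (27.7 against 13.0 FPKM) and *KDM6B* (6.99 against 4.31 FPKM) have the widest gaps, and *SUV39H2*, listed at 0, is not drawn.

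*KDM6B*, which encodes an H3K27 demethylase, was at 6.99 FPKM in the anti-*APC* siRNA library and 4.31 FPKM in the untransfected library. The ratio was 1.62, or 0.70 on the log2 scale. An approximate 95% counting interval of this ratio, from reads estimated by level, transcript length and depth, was 1.47 to 1.78, and it covers counting error only. The study picked *KDM6B* as a candidate with expression data that included this anti-*APC* siRNA library, so its direction here is not independent evidence. *KDM6B* was low among the demethylases, ranking 12 of 13 in the untransfected library and 9 of 13 in the anti-*APC* siRNA library. Of all expressed genes, 232 (1.92%) had a ratio at least as high, and among the 3801 with a mean within 2-fold of the *KDM6B* mean the share was 1.97%.

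*KDM6B* lies on the plus strand at chr17:7737535-7758114 (GRCh37), and its annotated RefSeq transcripts begin at more than 1 place. Whether transcription begins at each of these places in HCT-116 cells was not tested. The locus in the deposited table begins at position 7743235, which is 5700 bases downstream of the first RefSeq start used here. The sequences shown are the 250 bases before each of these starts, because the deposited locus and the first RefSeq start differ. They are from RefSeq (GRCh38.p14), each with 1 exact match in GRCh37, at chr17:7737285-7737534 for the upstream start and chr17:7742985-7743234 for the downstream start, both on the plus strand. Capitals mark the GC box GGGCGG, a word bound by SP1 family factors, on either strand.

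*KDM6B* upstream start: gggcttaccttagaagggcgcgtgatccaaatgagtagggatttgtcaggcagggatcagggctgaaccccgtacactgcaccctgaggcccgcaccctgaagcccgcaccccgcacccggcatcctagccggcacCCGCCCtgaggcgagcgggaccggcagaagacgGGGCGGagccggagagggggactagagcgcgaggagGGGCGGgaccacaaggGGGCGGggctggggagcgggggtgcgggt

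*KDM6B* downstream start: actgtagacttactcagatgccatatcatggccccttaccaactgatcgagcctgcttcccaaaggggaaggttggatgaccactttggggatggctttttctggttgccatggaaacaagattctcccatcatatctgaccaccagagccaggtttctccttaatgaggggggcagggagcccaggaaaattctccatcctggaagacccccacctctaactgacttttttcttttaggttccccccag

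The upstream sequence was 70.4% G or C and held 4 GC boxes, whereas the downstream sequence was 50.4% G or C and held none. Neither contained a TCF word, which is CAAAG preceded by the letter pair AA, AT, TA or TT on either strand, or an AP-1 word, which is TGACTCA or its reverse complement. Among the 250 bases before 35116 RefSeq starts, a TCF word was present in 12%, an AP-1 word in 4.2% and a GC box in 42.6%. Of the 69 such sequences of 45 of the enzyme genes, a TCF word was present in 1, an AP-1 word in 2 and a GC box in 48. These are matches of letters in short windows and do not show where a factor binds.

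The methyltransferases that act on the same residue as *KDM6B* differed little between the libraries. *EZH2*, the main catalytic subunit of Polycomb repressive complex 2 in dividing cells, was at 58.1 and 56.9 FPKM in the anti-*APC* siRNA and untransfected libraries, a ratio of 1.02 with a counting interval of 0.975 to 1.07. *EZH1*, its paralogue, was at 4.53 and 5.12 FPKM, a ratio of 0.885 (0.782 to 0.998). The level of *KDM6B* was 6.95% of the summed *EZH1* and *EZH2* level in the untransfected library and 11.1% in the anti-*APC* siRNA library. *EZH2* thus stood 13.2-fold above *KDM6B* without *APC* silencing and 8.32-fold above it with anti-*APC* siRNA, on the FPKM scale. Of 9 other subunits and cofactors of the complex, 6 were higher and 3 lower, with a median log2 ratio of 0.08. Of all expressed genes, 41.4% were higher. The core subunits *EED* (31.2 against 28.3 FPKM) and *SUZ12* (48.9 against 46.4 FPKM) both differed by less than 25%. The accessory subunit *PHF19* was at 23.9 against 35.9 FPKM, a ratio of 0.667, just short of 1.5-fold lower.

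None of the 12 other demethylases was 1.5-fold different, and without *KDM6B* the class had 4 genes higher and 8 lower with a median log2 ratio of -0.04. Those grouped under H3K4 were higher for 3 of 4, beside 41.4% higher among all expressed genes. *KDM1A* (LSD1), the amine oxidase of the CoREST complex and the most abundant demethylase, was at 132 against 128 FPKM, and its relative *KDM1B* was at 17.2 against 15.0. *KDM5A*, a JmjC enzyme that removes H3K4 trimethylation, was at 6.27 against 4.92 FPKM, a ratio of 1.27 (1.18 to 1.37), and it was listed at a shared locus with *CCDC77*. *KDM5A* was thereby second to *KDM6B* among the demethylases. *KDM5B*, of the same family, was at 9.94 against 10.4 FPKM. The H3K36 demethylase *KDM2A* was at 21.2 against 20.5 FPKM and its paralogue *KDM2B* at 15.6 against 16.4.

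The 6 members grouped here under H3K9, alone or with H3K36, all had lower levels in the anti-*APC* siRNA library, although by small amounts. Of all expressed genes, 58.6% were lower. *KDM3B* and *KDM4A* were above the median of all expressed genes (-0.05). The group leaves out *JHDM1D*, described below, which was higher. *KDM4B* was the lowest demethylase by ratio, at 5.32 against 6.54 FPKM (0.813, with a counting interval of 0.735 to 0.898). *KDM3A*, which removes mono- and dimethylation of H3K9 and is a known hypoxia target, was at 19.0 against 23.0 FPKM, a ratio of 0.828. The remaining genes lay closer to equality. *KDM3B* was at 35.6 FPKM in both libraries, *KDM4A*, which shares 46.5% of its transcript with another annotated gene on the same strand, at 14 against 14.2, and *KDM4C* at 6.95 against 7.28. *KDM4D*, which lacks the reader domains of its relatives, was at 1.70 against 1.93 FPKM with a wide interval of 0.685 to 1.13. The only gene past 1.5-fold among 10 further JmjC proteins was *JHDM1D* (KDM7A), a demethylase for H3K9 and H3K27, at 4.24 against 2.81 FPKM (1.5). In the same list *HR* was at 4.57 against 6.81 FPKM (0.671), and 4 of the 10 were higher with a median log2 ratio of -0.04.

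**Figure D2:**
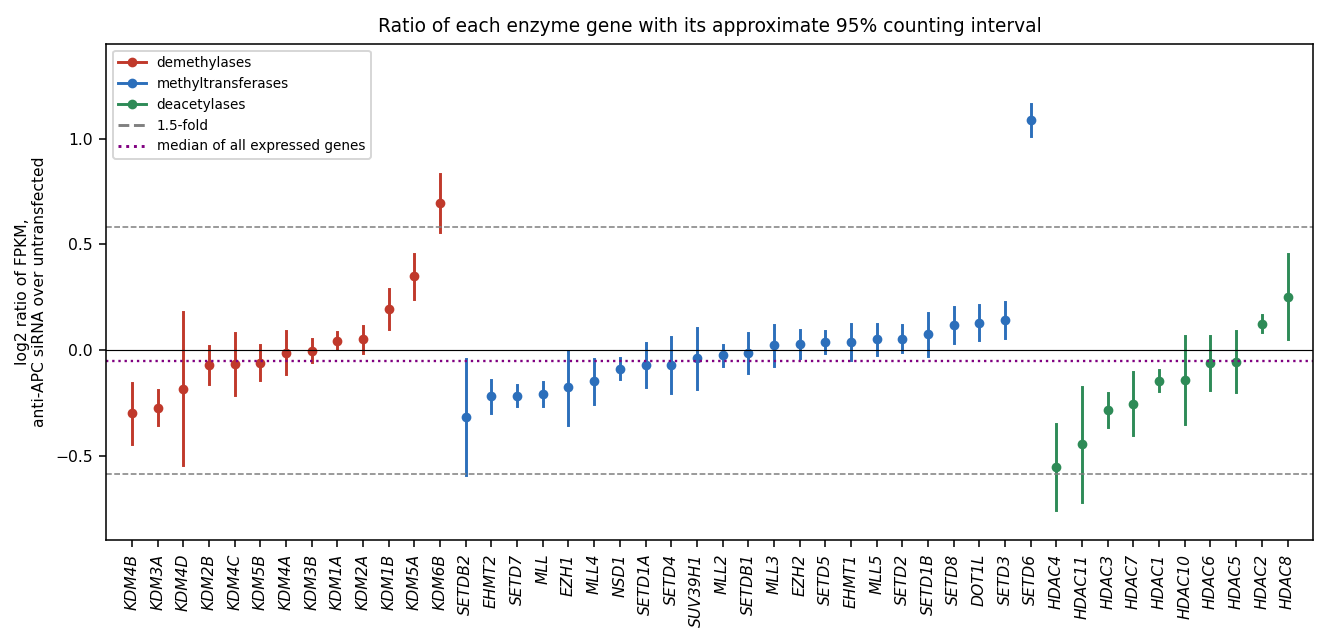
Log2 ratio of FPKM (anti-*APC* siRNA over untransfected, 1 library each) of 46 enzyme genes, ordered within each class, with vertical bars for the approximate 95% counting interval. *KDM6B* (0.70) and *SETD6* (1.09) lie above the dashed line at 1.5-fold, and *HDAC4* (-0.55) lies closest to the lower one.

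*SETD6* had the highest ratio of the whole set. This SET domain protein is known for monomethylation of the NF-κB subunit RelA and of histone H2A.Z. It was at 27.7 FPKM in the anti-*APC* siRNA library and 13.0 FPKM in the untransfected library, a ratio of 2.13 (2.02 to 2.25) or 1.09 on the log2 scale. It thereby moved from rank 15 to rank 6 among the methyltransferases. Only 93 expressed genes (0.771%) had a ratio at least as high, and 0.489% of the 4499 with a mean within 2-fold of its own.

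The locus of *SETD6* limits what this value can be assigned to. *SETD6* is annotated at chr16:58549421-58557746 on the plus strand (GRCh37), and in the deposited table it shares a locus with *CNOT1*, *SNORA46* and *SNORA50*. The transcript of *CNOT1*, the scaffold of the CCR4-NOT deadenylase complex, runs on the opposite strand and shares 1354 exonic bases with *SETD6*, which is 21.6% of the *SETD6* transcript of 6256 bases. *CNOT1* was more abundant, at 83.1 and 83.4 FPKM, a ratio of 0.996. If spread evenly along its transcript, reads of *CNOT1* in the shared bases would number 2596 in the anti-*APC* siRNA library and 2854 in the untransfected library. The estimated reads for *SETD6* were 3991 and 2054, so in the untransfected library the even-spread figure exceeded all *SETD6* reads. The *SETD6* difference amounts to 2116 reads at the depth of the anti-*APC* siRNA library. Whether the counting used strand is not given in the sources used here, and the share of *CNOT1* reads in the *SETD6* level was not tested. Of the enzymes 7 were listed at a shared locus, the others being *KDM1A*, *KDM4A*, *KDM5A*, *EHMT1*, *HDAC4* and *HDAC7*.

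The 250 bases before the *SETD6* start (chr16:58549171-58549420, GRCh37, plus strand; RefSeq sequence as above) are shown because *SETD6* had the largest ratio, with the GC box in capitals.

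*SETD6*: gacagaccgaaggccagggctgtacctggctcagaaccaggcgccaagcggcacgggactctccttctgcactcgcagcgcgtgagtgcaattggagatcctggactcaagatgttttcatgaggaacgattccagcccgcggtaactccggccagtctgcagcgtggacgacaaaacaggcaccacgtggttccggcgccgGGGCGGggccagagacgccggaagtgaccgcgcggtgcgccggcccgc

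This sequence was 65.6% G or C and held 1 GC box, no TCF or AP-1 word and 1 E-box of the letters CACGTG, which 6.34% of all sequences before RefSeq starts hold.

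For the other 22 expressed methyltransferases the difference was below 25%, and the class as a whole had 11 genes higher, 12 lower and a median log2 ratio of -0.01. Among the 7 that methylate H3K4, 5 were lower, beside 58.6% lower among all expressed genes. Of these 5, *MLL2* was above the median of all expressed genes. *MLL* (KMT2A), the founding member that is rearranged in leukaemia, was at 11.4 against 13.2 FPKM (0.866, with an interval of 0.832 to 0.901), and 22% of its transcript is shared with another annotated gene on the same strand. *SETD7*, an H3K4 monomethyltransferase, was at 38.2 against 44.4 FPKM (0.861). Both were beyond counting error at this depth, and both differences were small. *MLL4* (KMT2B) was at 6.93 against 7.68 FPKM and *SETD1A* at 9.98 against 10.5. The enhancer-associated enzymes *MLL2* (KMT2D) and *MLL3* (KMT2C) were near equality at 12.8 against 13.0 and 4.25 against 4.19 FPKM. *SETD1B* was at 7.58 against 7.20 FPKM. Of 10 subunits of the MLL and SETD1 complexes 8 were also lower (*RBBP5* and *DPY30* by less than the median of all expressed genes), with a median log2 ratio of -0.08, *ASH2L* being the lowest at 25.6 against 31.6 FPKM and *WDR82* the highest at 79.1 against 72.6.

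H3K9 methyltransferases were lower for 4 of the 5 with a value, beside 58.6% lower among all expressed genes. Of these 4, *SUV39H1* and *SETDB1* were above the median of all expressed genes. *EHMT2* (G9a) was at 26.6 against 31.0 FPKM (0.859), and its partner *EHMT1* (GLP) was at 19.1 against 18.6. In the deposited table *EHMT2* was placed on an alternate haplotype of chromosome 6. *SUV39H1* and *SETDB1*, which trimethylate H3K9 in heterochromatin, were at 12 against 12.3 and 16.7 against 16.8 FPKM. *SETDB2* had the lowest ratio of all methyltransferases, at 1.35 against 1.68 FPKM (0.802), and its interval of 0.664 to 0.972 was wide because it was little expressed.

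Enzymes for the marks of transcribed bodies and the cell cycle differed little, with *NSD1* slightly lower and the others slightly higher. *SETD2*, the enzyme of H3K36 trimethylation, was at 20.7 against 19.9 FPKM. *NSD1*, which dimethylates H3K36, was at 20.7 against 22 FPKM (0.940, with an interval of 0.909 to 0.973). *DOT1L*, the H3K79 methyltransferase, was at 13.9 against 12.7 FPKM (1.09). *SETD8* (KMT5A), which monomethylates H4K20 in the cell cycle, was also slightly higher at 34.1 against 31.4. Of the remaining SET domain proteins, *SETD3*, an actin histidine methyltransferase, was at 34.7 against 31.5 FPKM (1.10), the highest ratio in the class after *SETD6*. *SETD5* was at 36.4 against 35.5, *MLL5* (KMT2E) at 16.4 against 15.9 and *SETD4* at 12.5 against 13.1. A list of 12 further SET domain methyltransferases split evenly, with 6 higher and 6 lower and a median log2 ratio of -0.03, and none reached 1.5-fold.

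Deacetylases were lower for 8 of the 10 with a mean of at least 1 FPKM (80%, beside 58.6% of all expressed genes), with a median log2 ratio of -0.14, and the same 8 lay below the median of all expressed genes. None was 1.5-fold different. The class I enzymes *HDAC1*, *HDAC2* and *HDAC3* are nuclear subunits of co-repressor complexes such as Sin3, NuRD, CoREST and NCoR and were the 3 most abundant deacetylases in both libraries. *HDAC1*, the highest of all 48 genes without *APC* silencing, was at 128 against 142 FPKM (0.905, with an interval of 0.875 to 0.935). Its paralogue *HDAC2* went the other way, at 44.6 against 40.9 FPKM (1.09, with an interval of 1.06 to 1.12). The levels of these closely related enzymes thus differed in opposite directions by less than 25%. *HDAC3*, the NCoR enzyme, was at 49.1 against 59.7 FPKM (0.821). *HDAC8*, which deacetylates cohesin, had the highest ratio of the class at 10.5 against 8.79 FPKM (1.19, with an interval of 1.04 to 1.37), and 68% of its transcript is shared with another annotated gene on the same strand.

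The class IIa deacetylases, which shuttle between nucleus and cytoplasm and bind MEF2, were lower for each of the 3 expressed members, with a median log2 ratio of -0.25. Of all expressed genes, 58.6% were lower. *HDAC4* had the lowest ratio of all 46 enzymes, at 1.66 against 2.44 FPKM (0.681, with an interval of 0.591 to 0.784), and it was listed at a locus shared with other genes. A ratio at least as low was seen for 900 expressed genes, or 7.46%, whereas 1.92% were at least as high as *KDM6B*. *HDAC7* was at 6.84 against 8.15 FPKM (0.839) and *HDAC5* at 5.87 against 6.09. Of class IIb, the tubulin deacetylase *HDAC6* was at 10.2 against 10.6 FPKM and the polyamine deacetylase *HDAC10* at 5.90 against 6.50. *HDAC11*, the only class IV enzyme, was at 2.91 against 3.96 FPKM (0.735, with an interval of 0.607 to 0.886). *HDAC9*, *HDAC4* and *HDAC11* were the 3 least expressed deacetylases and also had the 3 lowest ratios of the class.

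Counting intervals that exclude equality were common in these libraries, at 60.9% of the 11308 expressed genes with a transcript length. Among the enzymes 24 of 46 had one (52.2%), with 10 above equality beside 23.8% of all expressed genes and 14 below it beside 37%. An interval on 1 side of equality was thus the usual case in these libraries, and no replicate shows how far such ratios vary between cultures.

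**Figure D3:**
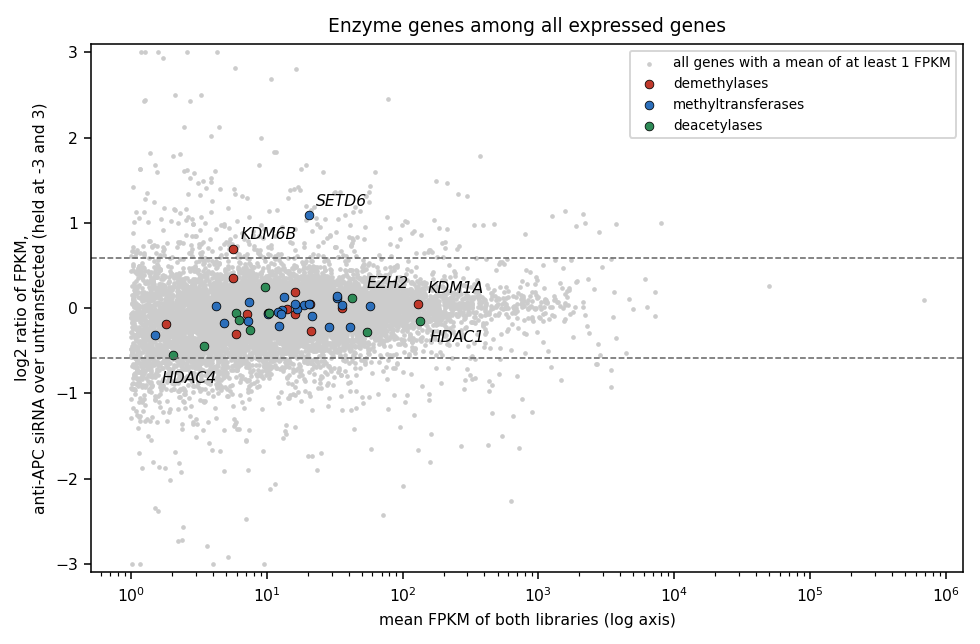
Log2 ratio of FPKM against mean FPKM (log axis) of all 12063 expressed genes (grey) and the 46 enzymes (coloured by class), with dashed lines at 1.5-fold and the few ratios beyond the axis drawn at its edge. The enzymes lie within the body of the grey points except *KDM6B* and *SETD6*, and the abundant *EZH2*, *KDM1A* and *HDAC1* lie close to 0.

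The partners of these enzymes were examined as lists, which were chosen with earlier results of these data known. Together 88 of 90 partners were expressed, with a median log2 ratio of -0.06. Of these, 1 (1.14%) was at least 1.5-fold higher and none was at least 1.5-fold lower, beside 2.56% and 6.61% of all expressed genes. For the directions below, 58.6% of all expressed genes were lower. Subunits of the deacetylase complexes were higher for 7 and lower for 10 of 17 (median log2 ratio -0.04), from *MTA1* of NuRD at 26.9 against 34.6 FPKM to the co-repressor *NCOR1* at 8.79 against 7.32. Histone acetyltransferases, which oppose the deacetylases, were higher for 4 and lower for 7 of 11 (median -0.03). Of these, *EP300* was at 17.4 against 17.7 FPKM and *CREBBP* at 14.2 against 13.5, while *KAT5* was listed at 0 in both libraries because its estimate failed. Sirtuins, the NAD-dependent deacetylases, were lower for 5 of 6 (median -0.13), with *SIRT1* the exception at 18.5 against 16.6 FPKM. Arginine methyltransferases were lower for all 7 (median -0.20), from *PRMT6* at 5.82 against 8.02 FPKM to *PRMT3* at 21.0 against 22.4. The most abundant of them, *PRMT1*, was at 150 against 194 FPKM. Enzymes of DNA methylation were higher for 5 of 7 (median 0.02), with *DNMT1* at 84.4 against 84.2 FPKM and the 5-methylcytosine oxidase *TET3* at 11.0 against 8.61.

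**Figure D4:**
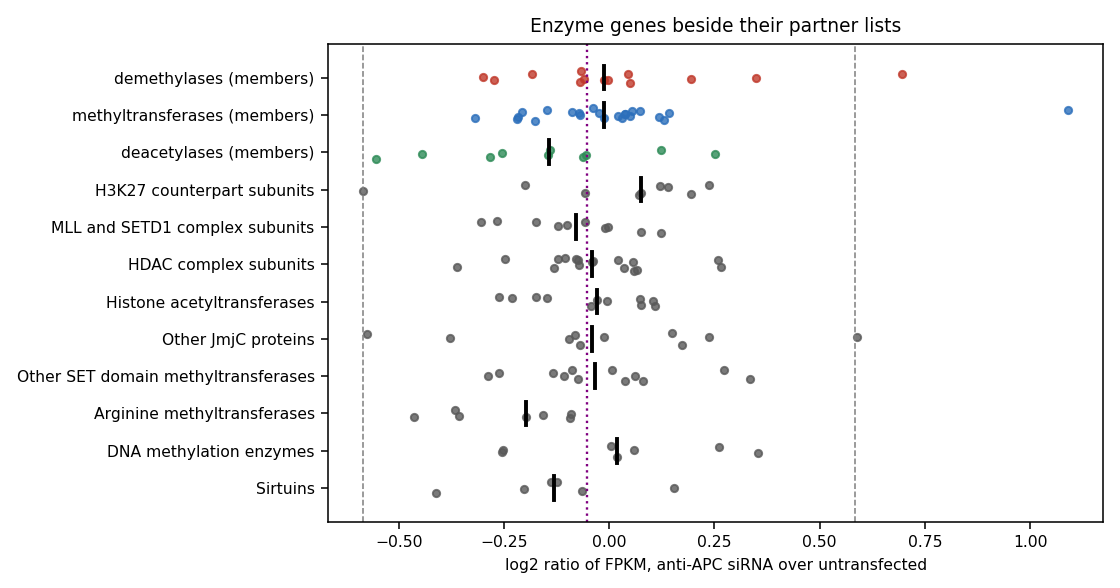
Log2 ratio of FPKM of each expressed gene in the 3 enzyme classes (coloured) and 9 partner lists (grey), with black bars for medians, dashed lines at 1.5-fold and a dotted line at the median of all expressed genes (-0.05). Medians of all lists lie between -0.20 and 0.08, and the points past 1.5-fold are *KDM6B*, *SETD6* and *JHDM1D*.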

How the data were processed

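RNA of HCT-116 cells was measured in single-read TruSeq libraries, of which the anti-*APC* siRNA and untransfected libraries, 1 each, are analysed here. The labels name a HiSeq instrument and the study's methods a Genome Analyzer II. The values the authors deposited are FPKM per gene, made with Cufflinks and Cuffdiff on hg19, per the labels and submitters' processing notes. Versions, the aligner, annotation and use of strand are not given in the sources used here. The same table holds the authors' log ratio, test statistic, p and q for this comparison, and these columns were not used. Failed estimates (269 genes) are listed at 0.

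Ratios are anti-*APC* siRNA over untransfected, with no pseudocount, over genes with a mean of at least 1 FPKM and above 0 in both libraries. A gene was called at 1.5-fold. All members are named, with full values for *KDM6B*, *EZH1*, *EZH2*, members past 1.5-fold and the highest and lowest ratio of each class. *APC*, *AXIN2* and *CTNNB1* serve as checks, and of the partner lists the genes past 1.5-fold are named by rule. Further partner and marker genes are named by choice, with values known. Members and lists were chosen with earlier results of these data known.

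The depth was estimated from the levels. In 319 of 1659 genes under 0.1 FPKM the libraries differed by nearly the same ratio, so 1 read was worth 9.54% more in the anti-*APC* siRNA library. Of these low genes, 60.2% lay on steps of up to 5 whole reads (within 0.01 on the log2 scale). This gave about 23100000 reads for that library and 25300000 for the untransfected library. The latter is the median over the 101 of 257 genes inside a fixed window around the commonest depth. Their range of 22100000 to 27900000 is bounded by that window and does not measure the error of the depth. Members then had an estimated 116 to 10066 reads. The 95% counting intervals are Poisson intervals of the ratio, cover counting error only and depend on canonical transcript lengths from GENCODE 44 on GRCh37, to which all 48 members were matched. The ratio of 1 read between libraries, the intervals and the calls at 1.5-fold were tested on simulated Poisson counts. There the intervals were given the known reads and depths, so reads estimated from level, length and depth were not tested. Python 3.11.15, pandas 2.3.3, numpy 2.4.6, scipy 1.17.1 and matplotlib 3.10.9 were used.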

Additional observations from a re-analysis of the deposited data

How the results depend on the processing

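The number of enzymes past 1.5-fold was 2 with a pseudocount of 0.1 or 1, without the filter, with a mean of at least 5 FPKM and after centring all ratios on their median (-0.05 on the log2 scale). It was 1 (*KDM6B*) when only genes alone at their locus were used, since *SETD6* shares its locus. It was 5 at a threshold of 25% above the lower level, which adds *KDM5A*, *HDAC4* and *HDAC11*, and 1 (*SETD6*) at 2-fold. The *KDM6B* ratio lay between 1.5 and 1.68 in all 4 alternatives. Of these, the use of genes alone at their locus cannot change it, and centring multiplies every ratio by the same factor. The median log2 ratio ranged over its 6 alternatives from -0.06 to 0.01 for all enzymes, -0.06 to 0.04 for demethylases, -0.02 to 0.04 for methyltransferases and -0.14 to -0.09 for deacetylases. Of these only the deacetylase median kept its sign in each alternative, and the others were above 0 after this centring. Over all expressed genes, 27.9% of those past 1.5-fold were higher, 33.6% with a pseudocount of 1 (227 higher, 448 lower) and 35.1% after centring (353 higher, 652 lower). No paired analysis was possible because each group has 1 library and no test was run. Depth limits *SETDB2*, *KDM4D*, *HDAC9* and *HDAC11* most, whose counting intervals are the widest.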

Other observations

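The 6 neighbours of *KDM6B* named first here had ratios closer to equality than *KDM6B*, but they are not the nearest genes. *TMEM88*, *DNAH2* and *LSMD1*, which are given after them and had larger differences, lie nearer to *KDM6B*. Within 100 kb of it on chromosome 17, *CYB5D1* was at 17.3 FPKM in the anti-*APC* siRNA library against 17.8 in the untransfected library, *CHD3*, a NuRD helicase, at 15.4 against 15.8, and *CNTROB* at 15.7 against 16.4. *TRAPPC1* was at 88.6 against 85.9 FPKM, *KCNAB3* at 1.75 against 1.44 and *RPL29P2* at 4.02 against 4.06. *LSMD1*, which lies 1.89 kb away on the minus strand, was at 15.6 against 23.3 FPKM (0.669). *TMEM88*, the nearest gene, on the same strand and 0.27 kb away, was below 1 FPKM in both libraries, at 0.651 against 0.378, a ratio of 1.72 with a wide counting interval of 0.684 to 4.95. *DNAH2* was at 0.206 against 0.299 FPKM (0.688). Next to *SETD6* and *CNOT1*, *NDRG4* was at 1.57 against 2.33 FPKM (0.673). The set of neighbours was chosen by distance alone, with no test, but the order in which they are named was not.

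Of 8 WNT feedback genes, 6 were expressed and 4 of these were at least 1.5-fold higher in the anti-*APC* siRNA library, beside 2.56% of all expressed genes. The study listed *AXIN2* and *ZNRF3* as targets with expression data that included this library. It also reported *AXIN2* and *SP5* among the transcripts altered after *APC* silencing. The direction of *AXIN2*, *ZNRF3* and *SP5* here is therefore not independent evidence. Besides *AXIN2* (7.0-fold), the genes at least 1.5-fold higher were *SP5* at 2.14 against 0.394 FPKM (5.42-fold), *NKD1* at 3.44 against 1.68 (2.05-fold) and *ZNRF3* at 6.84 against 3.89 (1.76-fold). *NKD2* was lower at 5.32 against 7.40 FPKM, and *NOTUM* was at 2.85 against 2.66.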
